A study of Mus musculus with 6 samples.

Results

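Striated muscle genes were read in 3 bones of untreated male mice, namely calvaria, mandible and ulna, with 2 arrays each. The set holds 41 genes of the sarcomere, of calcium handling and of muscle energy supply, out of 18193 genes that the array annotation names. A probe set, the group of oligonucleotides that reads a transcript, was taken for a gene where the annotation gave it that gene as its sole symbol. All 41 genes had such a probe set, and 76 probe sets were found in all. The mice were skeletally mature, weighed 24 to 26 grams and are called Black CD57 in the methods. Sutures had been taken off the calvaria, and soft tissue and epiphyses off the ulna, while the mandible kept its teeth. For the rat bones of the same paper, the methods say that soft tissue was cleared from skull and limb alike. The methods divide the mice into a pair of groups but do not tie a group, or a number of mice, to an array, and age was not given in the sources used here, so p-values measure only the spread between arrays, which may be technical.

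In a muscle fibre, myosin of the thick filament pulls on actin of the thin filament, and both are held in register by the Z-disc, the M-band and the giant protein titin. Calcium leaves the sarcoplasmic reticulum through the ryanodine receptor, binds troponin to switch contraction on, and is pumped back by the calcium ATPase SERCA. Fast and slow fibres build the same machine from different paralogues, such as the fast and slow troponins, and fast fibres rely more on phosphocreatine and glycolysis.

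The values are MAS5 signal intensities, a linear measure of probe brightness, which the authors deposited with a 2% trimmed mean of 100 on each array. Array medians lay between 30.6 and 33.6. Each array was divided by its median before log2 was taken. Tests took in every probe set with 2 or more of its 6 values over the median of the array, and a gene was called at a limma adjusted p under 0.05 and at least 2-fold. Where several probe sets of a gene were tested, the one with the highest mean stands for the gene. Levels of different genes are not compared, since each probe set has its own brightness.

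Of the 41 genes, 40 were tested. Only Tnni1, the inhibitory troponin subunit of slow fibres, lay below the array median throughout, with signals of 1.15 and 1.32 in calvaria, 3.82 and 1.86 in mandible and 23.1 and 15.3 in ulna. All 40 tested genes lay above the array median on both ulna arrays, 37 on both mandible arrays and 32 on both calvaria arrays. Ankrd1 passed through its ulna arrays alone, and Casq2, Cacna1s and Smyd1 passed through ulna and mandible with both calvaria arrays below the median. Tnnc1 and Sln were also below the median on both calvaria arrays and on 1 mandible array, and Tnnt1 and Jph1 on 1 calvaria array. A gene that passed only through the sites where it was high had to differ, and its difference is inexact where a site lay below the median.

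Summed over the 41 genes, the signal was 10477 and 10593 in calvaria, 74278 and 71810 in mandible and 84653 and 87491 in ulna. The 3 sites did not overlap. Markers of osteoblasts and osteocytes, the cells that form and maintain bone, summed over 9 genes to between 35136 and 38166 in calvaria, 35909 and 36890 in mandible and 9535 and 9739 in ulna. A sum is set mostly by its brightest probe sets, and single markers were less even. Of the 9, 7 were called higher in calvaria than in ulna and 6 higher in mandible than in ulna. Between mandible and calvaria 7 were not called, Phex was higher in mandible (3.39-fold, limma adjusted p = 1.73e-07) and Ifitm5 lower (2.07-fold, limma adjusted p = 0.00604). The osteocyte gene Sost was lower in calvaria than in ulna by -0.53 on the log2 scale (limma adjusted p = 0.00106), under 2-fold. In whole bone, fewer cells of a type and less RNA per cell cannot be told apart. The part of bone cell content in the muscle values was not tested.

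Between calvaria and ulna, 39 of the 40 tested genes were called lower in calvaria and 0 higher. Among all 12326 genes tested, 4.54% were called lower in calvaria and 8.36% higher. The median log2 difference of the 40 genes was -3.23, beside -0.05 over all genes tested, and the values ran from -4.74 for Csrp3 to -0.85 for Actc1. Between mandible and calvaria, 36 genes were called higher in mandible and 0 lower, beside 5.14% and 4.01% of all genes tested. The median there was 2.76, beside -0.09 over all genes tested. Between mandible and ulna, 7 genes were called lower in mandible and 1 higher, beside 10.9% and 11.0% of all genes tested. The median was -0.52, beside -0.08 over all genes tested. A further 18 genes were lower and 2 higher in mandible at an adjusted p under 0.05 but under 2-fold. Of all 12326 genes tested, 2127 and 1108 were in the same classes. The calvaria therefore stood apart from both other bones, and mandible and ulna differed by little in most of the genes. The 3 comparisons share arrays, so each is given by its own values. Scaling shifted mandible against ulna for every gene: with the values as deposited, the median over all genes was 0.03 in place of -0.08 and that of the muscle genes -0.40.

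**Figure D1:**
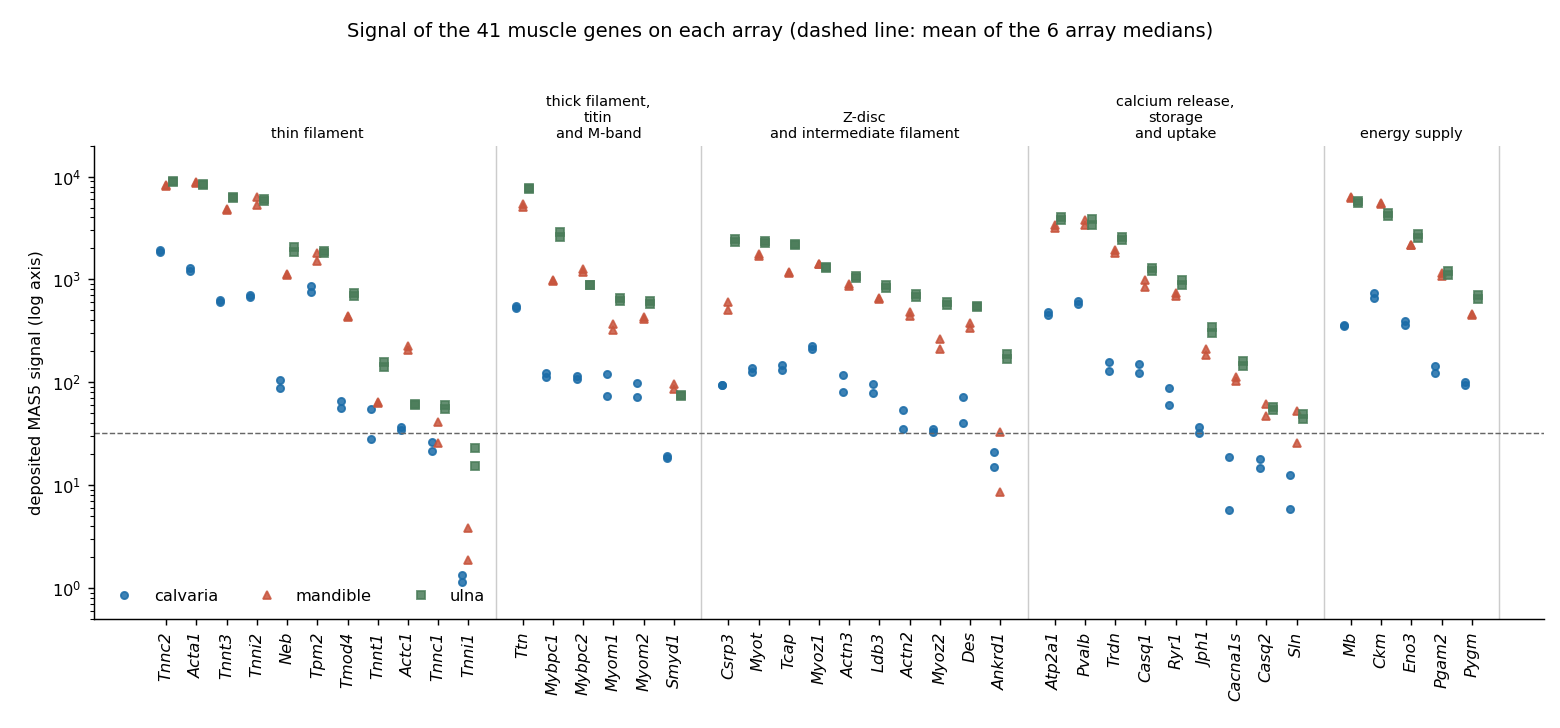
Deposited MAS5 signal (log axis) of each of the 41 genes by role, with 1 point per array (2 each for calvaria, mandible and ulna) and a dashed line at the mean of the array medians. The points for calvaria lie lowest for most genes, those for mandible and ulna lie close together, and Tnni1 lies below the line on all 6 arrays.

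**Figure D2:**
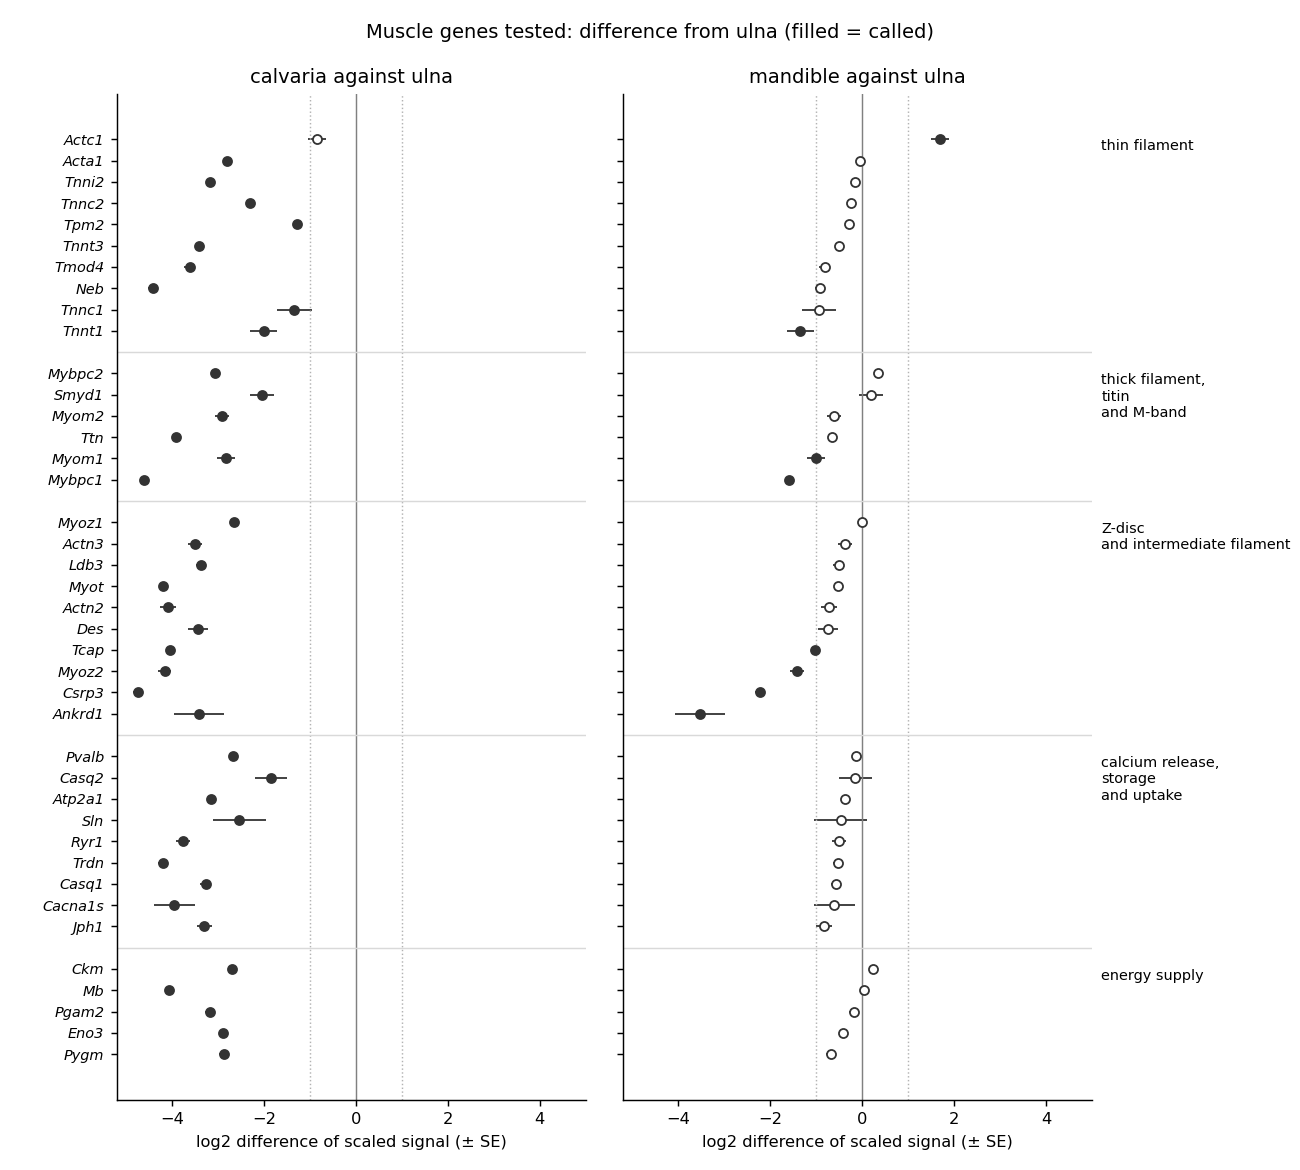
Log2 difference of scaled signal with its standard error for the 40 tested genes, calvaria against ulna on the left and mandible against ulna on the right, with dotted lines at 2-fold and filled points for called genes. On the left 39 points are called and all lie below 0, and on the right 7 are called below 0 and Actc1 alone above it.

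Promoters were searched for motifs bound by regulators of muscle genes. RefSeq windows on GRCm38.p6, from 250 bases before to 50 after the start of transcription, were at hand for 30 of the 41 genes, in 36 windows. The other genes were Actn3, Jph1, Myom2, Myot, Myoz1, Neb, Sln, Tcap, Tnni2, Tnnt3 and Trdn. Both strands were searched. A CArG box, the site of serum response factor, was found in 13.9% of the 36 windows and in 1.63% of 32851 windows of all genes. A MEF2 box, the site of the MEF2 factors, was found in 13.9% and 3.19%. The E-box CAGCTG, a site of the MyoD family, was in 44.4% and 16.3%, and the broader E-box CANNTG, which takes in every CAGCTG, in 86.1% and 72.3%. The MCAT motif CATTCC was in 22.2% and 14.7%, and TATAAA in 11.1% and 13.6%. Windows of 1 gene can overlap, and those of Ldb3 held the same CArG box. By gene, the CArG box was in 13.3% of the 30 genes and 1.81% of all 27025, and the MEF2 box in 16.7% and 3.7%. CAGCTG was in 46.7% and 18.3%, CANNTG in 90% and 75%, CATTCC in 26.7% and 16.6% and TATAAA in 13.3% and 15.7%. These shares describe the letters in the windows and were not tested. The 4 genes with a CArG box are shown first, as they include both sarcomeric actins, Acta1 and the 1 gene called higher in mandible than in ulna, Actc1. Then follow 3 of the 5 genes with a MEF2 box, the energy gene Pgam2 and the slow forms Casq2 and Myoz2 (the others are Pvalb and Ttn). Each line gives the 150 bases before the start, 5′ to 3′ along the gene, in lower case with the box in capitals.
Acta1 (chr8:123894776-123894925, minus strand): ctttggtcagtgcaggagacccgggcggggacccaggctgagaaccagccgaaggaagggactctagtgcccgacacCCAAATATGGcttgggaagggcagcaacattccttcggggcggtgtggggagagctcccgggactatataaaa
Actc1 (chr2:114052876-114053025, minus strand): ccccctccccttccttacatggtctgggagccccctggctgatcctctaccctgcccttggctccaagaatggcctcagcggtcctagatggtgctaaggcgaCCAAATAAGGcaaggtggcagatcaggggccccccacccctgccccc
Ldb3 (chr14:34588682-34588831, minus strand): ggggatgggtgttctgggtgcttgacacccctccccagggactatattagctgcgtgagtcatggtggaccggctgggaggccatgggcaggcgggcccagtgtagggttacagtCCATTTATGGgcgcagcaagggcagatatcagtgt
Myom1 (chr17:71019407-71019556, plus strand): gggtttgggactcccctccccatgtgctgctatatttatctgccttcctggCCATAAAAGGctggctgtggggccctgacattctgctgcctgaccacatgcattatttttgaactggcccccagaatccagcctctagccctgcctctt
Pgam2 (chr11:5803797-5803946, minus strand): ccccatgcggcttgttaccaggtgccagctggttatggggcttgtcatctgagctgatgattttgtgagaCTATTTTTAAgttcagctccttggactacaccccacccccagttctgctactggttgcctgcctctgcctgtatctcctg
Casq2 (chr3:102086265-102086414, plus strand): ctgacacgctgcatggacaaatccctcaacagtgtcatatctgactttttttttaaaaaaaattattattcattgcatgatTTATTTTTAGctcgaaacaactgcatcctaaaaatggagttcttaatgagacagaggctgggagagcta
Myoz2 (chr3:123034988-123035137, minus strand): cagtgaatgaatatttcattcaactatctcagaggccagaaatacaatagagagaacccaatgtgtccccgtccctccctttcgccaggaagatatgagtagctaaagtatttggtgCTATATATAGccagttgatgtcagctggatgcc

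The box of Acta1 began 73 bases before the start, that of Actc1 47, of Ldb3 35 and of Myom1 99. The MEF2 boxes of Pgam2, Casq2 and Myoz2 began 80, 69 and 33 bases before it.

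Among thin filament genes, 9 of the 10 tested were called lower in calvaria than in ulna and 7 higher in mandible than in calvaria, while mandible and ulna were apart in 2. Acta1 encodes alpha-actin of skeletal muscle. Its signal was 1290.2 and 1218 in calvaria, 8787 and 8735 in mandible and 8259 and 8478 in ulna. The mandible and ulna arrays lay close together, at about 7 times the calvaria level: the log2 difference of calvaria against ulna was -2.82 (SE 0.06, limma adjusted p = 1.27e-10). Between mandible and ulna it was -0.05 (limma adjusted p = 0.51), and its sign turned with the scaling (0.07 as deposited and 0.05 with the 75th percentile).

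Actc1, the alpha-actin of heart and of developing skeletal muscle, had signals of 36.5 and 34.6 in calvaria, 224 and 204 in mandible and 61.3 and 60.2 in ulna. Here the mandible was highest, and its arrays did not overlap with those of the other bones. Actc1 was the 1 gene called higher in mandible than in ulna, 3.25-fold (log2 1.70, SE 0.20, limma adjusted p = 4.93e-05). It was also the 1 tested gene not called between calvaria and ulna (-0.85, limma adjusted p = 0.00815, under 2-fold). Of 7 heart muscle markers, Myh6, Myl7, Nppa, Nppb, Tnnt2 and Tnni3 lay below the filter. The sum of the 7 was between 179 and 197 in mandible and between 192 and 237 in ulna. Myl4, the 1 marker tested, gave most of each sum, with means of 132 in mandible and 132 in ulna. The sums therefore say little of the other markers, and their relation to Actc1 was not tested.

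Nebulin (Neb), which runs along the thin filament, fell furthest of the thin filament genes in calvaria, to a log2 difference of -4.43 from ulna (limma adjusted p = 3.33e-10). Its difference of -0.93 between mandible and ulna was just under 2-fold (limma adjusted p = 4.36e-05), and it was called without ulna replicate 2 (-1.005). Tmod4, which caps the pointed ends of actin, differed by -3.62 in calvaria and -0.81 in mandible against ulna. Tpm2, the beta form of tropomyosin, had a smaller difference in calvaria (-1.27). Its difference between mandible and calvaria was 0.99 and under 2-fold. Tpm2 was called there with the values as deposited (1.03), with the 75th percentile (1.04), without calvaria replicate 2 (1.08) and without mandible replicate 2 (1.12). It was also called, with larger differences, by the mean of its probe sets (2.05) and by its unsuffixed probe set (2.42), and its 3 other probe sets were each called higher in mandible than in calvaria.

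All 6 thick filament, titin and M-band genes were called lower in calvaria than in ulna and higher in mandible than in calvaria. Titin (Ttn), the spring that spans from Z-disc to M-band, had signals of 553 and 522 in calvaria, 5107 and 5376 in mandible and 7486 and 7799 in ulna. The sites were ordered calvaria, mandible, ulna with no overlap between arrays, and the mandible lay -0.66 from ulna on the log2 scale (limma adjusted p = 1.46e-05), under 2-fold. Of 5 tested Ttn probe sets, 2 were called lower in mandible, with a lowest value of -1.65. The mean of the 5 was -1.13 and was called.

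The 2 paralogues of myosin binding protein C differed in sign between mandible and ulna. Mybpc1, the slow-type form, had signals of 122 and 113 in calvaria, 987 and 971 in mandible and 2557 and 2862 in ulna. The mandible arrays lay below the ulna arrays by -1.58 (SE 0.09, limma adjusted p = 2.44e-07), and all 3 of its probe sets were called. Mybpc2, the fast-type form, had signals of 114 and 107 in calvaria, 1261 and 1169.6 in mandible and 873 and 881 in ulna. Here the mandible lay above ulna, by 0.35 (limma adjusted p = 0.00909), which is under 2-fold. Both were lower in calvaria, by log2 differences of -4.60 and -3.07.

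Myom1 and Myom2 cross-link thick filaments at the M-band. Myom1 was -1.01 lower in mandible than in ulna on the log2 scale (limma adjusted p = 0.00175), at the edge of the 2-fold limit. It fell under the limit with the values as deposited (-0.89), by quantiles (-0.87), with the 75th percentile (-0.90), with an offset (-0.94), without mandible replicate 1 (-0.90) and without ulna replicate 2 (-0.95). Myom2 differed by -0.62 and was not called. Smyd1, a methyltransferase needed for myosin assembly, was -2.05 in calvaria and 0.18 in mandible against ulna. Its 4 tested probe sets ranged from -3.41 to 0.03 between calvaria and ulna, and 2 of them were called. Both calvaria arrays lay below the median for the probe set that stands for Smyd1. The probe set that lay above the median on all 6 arrays gave -0.01 for calvaria against ulna. For mandible against calvaria it gave -0.04, so that the call of 2.24 was lost and its sign turned.

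All 10 Z-disc and intermediate filament genes were called lower in calvaria than in ulna, and 4 of them also lower in mandible than in ulna. Csrp3, the muscle LIM protein of the Z-disc, had signals of 93.0 and 94.2 in calvaria, 597 and 509 in mandible and 2291 and 2472 in ulna. The ulna arrays were highest, the mandible arrays between and the calvaria arrays lowest, without overlap. The difference of calvaria against ulna was -4.74 (SE 0.10, limma adjusted p = 1.57e-10), the most negative among the 40 genes. Csrp3 was 4.68-fold lower in mandible than in ulna (-2.23, limma adjusted p = 5.42e-08).

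Ankrd1 encodes an ankyrin repeat protein that binds titin and is known to be induced by stress on muscle. Its signals were 15.0 and 21.0 in calvaria, 8.63 and 32.8 in mandible and 169.6 and 188 in ulna. Only the ulna arrays lay above the array median, and the mandible arrays lay far apart. The log2 difference of mandible against ulna was -3.53 (SE 0.54, limma adjusted p = 0.000371). The other Ankrd1 probe set, with 46.9 and 48.0 in mandible and 173 and 150.1 in ulna, gave -1.88 and was not called (limma adjusted p = 0.072). Both probe sets were called lower in calvaria. Without moderation of the variances, Ankrd1 was called in neither comparison with ulna (adjusted p = 0.073 for mandible and 0.105 for calvaria by limma's linear model).

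Tcap, which caps the Z-disc end of titin, lay -1.02 from ulna in mandible (limma adjusted p = 4.86e-06). It fell under 2-fold with the values as deposited (-0.90), by quantiles (-0.85), with the 75th percentile (-0.92) and with an offset (-0.999) or without ulna replicate 2 (-0.996). Of the Z-disc genes with the highest mean, myotilin (Myot) had signals of 127 and 137 in calvaria, 1753 and 1702 in mandible and 2346 and 2244 in ulna. Calvaria stood apart, at 18.4-fold lower than ulna (limma adjusted p = 1.01e-10), and mandible differed from ulna by -0.53, under 2-fold.

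Not called between mandible and ulna were the actin cross-linker Actn2 (-0.73), Ldb3 of the Z-disc (-0.51) and the intermediate filament protein desmin (-0.74 for Des). The adjusted p of each was under 0.05 by limma, with a difference under 2-fold. In calvaria these 3 genes differed from ulna by -4.09, -3.37 and -3.44.

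The 9 genes of calcium release, storage and uptake were called lower in calvaria than in ulna, and 0 of the 9 were called between mandible and ulna. Pvalb, the calcium buffer of fast fibres, had signals of 574 and 619 in calvaria, 3799 and 3342 in mandible and 3380.2 and 3839 in ulna. Mandible and ulna arrays overlapped (-0.13, limma adjusted p = 0.243), and calvaria lay below both (-2.67, limma adjusted p = 2.92e-09). Triadin (Trdn), which ties the release channel to calsequestrin, had signals of 157 and 129 in calvaria, 1932 and 1812 in mandible and 2426 and 2562 in ulna. Its mandible signal was 12.8-fold that of calvaria (log2 3.68, limma adjusted p = 1.69e-09).

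Of the parts of the release unit, the voltage sensor Cacna1s differed by -3.95 between calvaria and ulna, the release channel Ryr1 by -3.76 and Jph1, which holds the 2 membranes together, by -3.30. Mandible against ulna gave -0.61, -0.51 and -0.83 for the same 3 genes. The size for Cacna1s in calvaria is loose, since both calvaria arrays (18.9 and 5.67) lay below the array median: it was -3.08 without calvaria replicate 2, -4.82 without calvaria replicate 1 and -2.12 with an offset of 1 array median. Its call was lost without moderation of the variances (adjusted p = 0.0695 by limma's linear model). The calsequestrin of fast fibres, Casq1, differed by -3.27 in calvaria and -0.57 in mandible against ulna. Of 2 Jph1 probe sets, the other gave -1.08 in calvaria and was not called.

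Sarcolipin (Sln), a regulator of SERCA, was dim, with signals of 12.4 and 5.79 in calvaria, 52.8 and 25.4 in mandible and 44.2 and 49.5 in ulna. Its call in calvaria against ulna (-2.54, limma adjusted p = 0.00693) was lost without ulna replicate 2 (limma adjusted p = 0.0538). Its call in mandible against calvaria (2.07) was lost without calvaria replicate 2 (1.52) and without mandible replicate 1 (1.55). That call was also lost without a signal trend in the variances (limma adjusted p = 0.0621) and with only the 4 arrays compared (limma adjusted p = 0.0759).

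The 5 energy genes were called lower in calvaria than in ulna and higher in mandible than in calvaria, and 0 of 5 were called between mandible and ulna. Ckm, the creatine kinase that restores ATP from phosphocreatine, had signals of 729 and 662 in calvaria, 5549.5 and 5409 in mandible and 4144 and 4395 in ulna. The mandible arrays were highest, by 0.24 on the log2 scale over ulna (limma adjusted p = 0.0154), under 2-fold. Myoglobin (Mb), the oxygen store of muscle, had signals of 352 and 359 in calvaria, 6362 and 6242 in mandible and 5544 and 5846 in ulna. The mandible signal was 17.2-fold that of calvaria (log2 4.11, SE 0.06, limma adjusted p = 8.13e-11), the most positive of the 40 genes. Between mandible and ulna, Mb differed by 0.03 (limma adjusted p = 0.739), and the sign turned without ulna replicate 1 (-0.02).

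Eno3, the muscle enolase of glycolysis, differed by -2.90 in calvaria and -0.41 in mandible against ulna. For Pygm, which releases glucose from glycogen, the values were -2.87 and -0.68, and for Pgam2, the muscle phosphoglycerate mutase, -3.19 and -0.18.

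Fast forms were compared with slow forms by the distance of each gene from its own ulna mean. In mandible the mean of the 5 fast genes lay closer to ulna than that of the slow genes, while in calvaria both means were low. The fast list has troponin T (Tnnt3), I (Tnni2) and C (Tnnc2), alpha-actinin 3 (Actn3) and SERCA1 (Atp2a1). The slow list has troponin T (Tnnt1), I (Tnni1) and C (Tnnc1), calsarcin 1 (Myoz2) and calsequestrin 2 (Casq2). Tnnc1, Myoz2 and Casq2 are known from heart as well as slow fibres.

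Tnnt3 had signals of 599 and 635 in calvaria, 4735 and 4810.1 in mandible and 6321 and 6159 in ulna. Mandible was close to ulna, at -0.50 (limma adjusted p = 7.23e-05, under 2-fold). Its slow partner Tnnt1 had signals of 54.3 and 28.2 in calvaria, 64.8 and 62.1 in mandible and 142 and 157 in ulna. Mandible arrays lay 2.55-fold below those of ulna (-1.35, limma adjusted p = 0.00337), and above those of calvaria by 0.66, which was not called (1.13 and called without calvaria replicate 1). Without moderation of the variances, limma's adjusted p for Tnnt1 was 0.105 in mandible and 0.0781 in calvaria against ulna.

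Tnni2 had signals of 698 and 678 in calvaria, 6305 and 5339.5 in mandible and 5757 and 6111 in ulna, with overlap of mandible and ulna (-0.15, limma adjusted p = 0.151). Of its slow partner Tnni1, at a signal of 23.1 or less on all arrays, no test was made. Tnnc2, the calcium sensor of fast troponin, had signals of 1833 and 1924 in calvaria, 8086 and 8203 in mandible and 8776 and 8961 in ulna and differed by -0.24 between mandible and ulna (limma adjusted p = 0.00562, under 2-fold). The slow Tnnc1 had signals of 21.5 and 26.5 in calvaria, 40.9 and 25.8 in mandible and 54.8 and 60.0 in ulna. Mandible arrays lay below ulna by -0.94 (limma adjusted p = 0.0669) and were not called. Its call in calvaria (-1.34, limma adjusted p = 0.0212) was lost without calvaria replicate 1, ulna replicate 1 or ulna replicate 2 (limma adjusted p = 0.0889, 0.0692 and 0.109).

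Actn3, the alpha-actinin of fast fibres, had signals of 80.4 and 118 in calvaria, 903 and 861 in mandible and 1079 and 1021 in ulna and was -0.37 in mandible against ulna (limma adjusted p = 0.0703). Atp2a1, the SERCA pump of fast fibres, had signals of 447 and 476 in calvaria, 3393 and 3180.1 in mandible and 3806 and 4033 in ulna and was -0.37 there (limma adjusted p = 0.00158, under 2-fold). For both, the mandible arrays lay just below the ulna arrays and far above those of calvaria.

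Myoz2, a Z-disc protein that binds calcineurin, had signals of 35.1 and 33.1 in calvaria, 262 and 212 in mandible and 598 and 563 in ulna. It was 2.67-fold lower in mandible than in ulna (-1.42, SE 0.15, limma adjusted p = 1.96e-05). The fast-type relative Myoz1 had signals of 223 and 212 in calvaria, 1396 and 1416 in mandible and 1296 and 1313 in ulna, and its mandible and ulna levels were within -0.01 (limma adjusted p = 0.936), with a sign that turned under other scalings (0.09 to 0.13). Casq2, the calsequestrin of slow fibres and heart, had signals of 14.7 and 17.7 in calvaria, 47.0 and 61.4 in mandible and 53.1 and 56.8 in ulna. It overlapped between mandible and ulna (-0.15, limma adjusted p = 0.765). Its call in mandible against calvaria (1.70) was lost without mandible replicate 2 (1.49, limma adjusted p = 0.0576).

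Between mandible and ulna, 0 of the 5 fast genes and 2 of the 4 tested slow genes were called. Of all genes tested, 10.9% were called lower and 11.0% higher in mandible. A further 3 fast genes and 0 slow genes were lower at a limma adjusted p under 0.05 but under 2-fold. The difference in calls was not tested. The mean log2 distance from ulna in mandible was -0.33 ± 0.04 (SD, n = 2 arrays) for the fast genes and -1.36 ± 0.23 for the slow genes. The gap between fast and slow was 0.90 and 1.16 on the 2 mandible arrays, with a mean of 1.03. Without Tnni1, it was 0.59 and 0.68, with a mean of 0.64. In calvaria the fast mean was -3.12 and the slow mean -2.67, a gap of -0.44, or -0.78 without Tnni1. Between mandible and calvaria the gap was 1.48, or 1.42 without Tnni1. With 2 arrays against 2, an exact two-sided permutation test can give no p below 0.333, so no test was made. An offset of 1 array median before log2, which shrinks differences of dim probe sets, brought the mandible gap to 0.38 and the calvaria gap to -1.61. In calvaria, Tnnc1, Tnni1 and Casq2 lay below the array median on both arrays and Tnnt1 on 1 of 2. With a filter at the 75th percentile, which left only Tnnt1 and Myoz2 of the slow genes, the calvaria gap was -0.03.

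**Figure D3:**
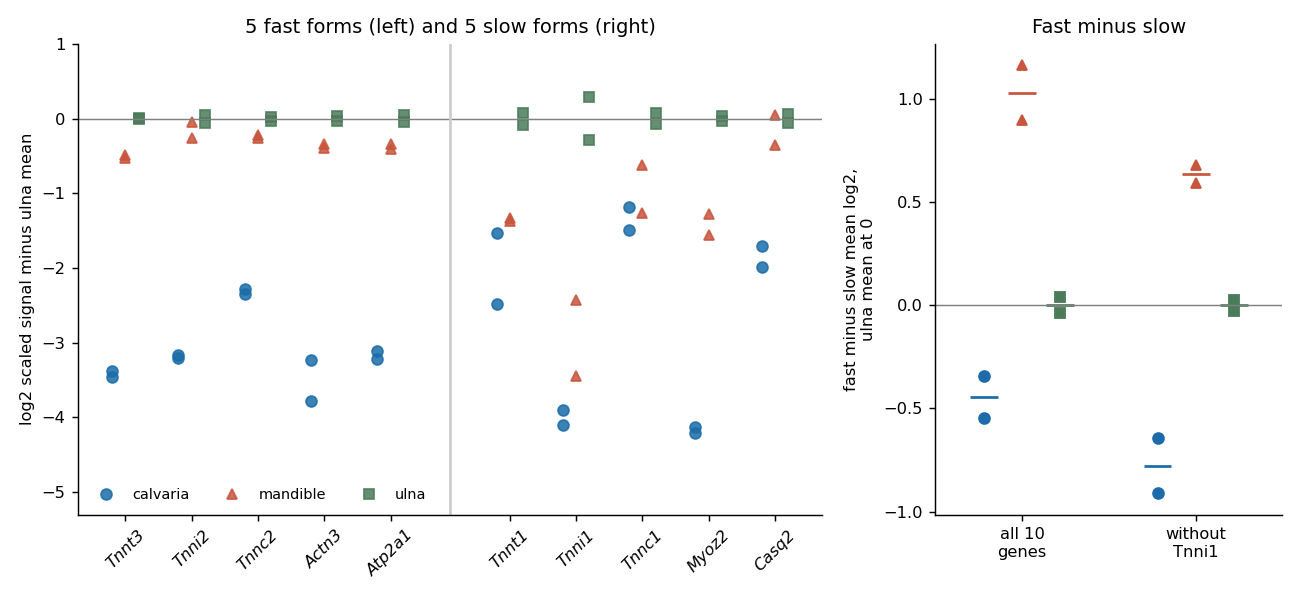
Left, log2 scaled signal of 5 fast and 5 slow genes minus the mean of the ulna arrays for that gene, with 1 point per array. Right, the mean of the fast genes minus the mean of the slow genes on each array, with bars at site means, for all 10 genes and without Tnni1: the mandible arrays lie above 0 and the calvaria arrays below.

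By pairs of paralogues, the fast form lay higher relative to ulna than the slow form in mandible for Tnnt3 and Tnnt1 (a gap of 0.85), Tnni2 and Tnni1 (2.79), Tnnc2 and Tnnc1 (0.70) and Myoz1 and Myoz2 (1.41). Actn3 lay higher than its paralogue Actn2 (0.36), which is not in the slow list. Both mandible arrays had a positive gap in each of these 5 pairs. The gaps with Tnni1, below the array median on all 6 arrays, and with Tnnc1, below it on 1 mandible array, are inexact. Casq1 and Casq2 (-0.42) and Atp2a1 and Atp2a2 (-1.22) went the other way on both arrays. Atp2a2, the SERCA pump of slow fibres, heart and many non-muscle cells, had signals of 816 and 914 in calvaria, 1569 and 1467 in mandible and 791 and 766 in ulna. Its mandible arrays were highest, and calvaria did not fall below ulna (0.07, limma adjusted p = 0.548). In calvaria against ulna the gap was positive for Tnni2 and Tnni1 (0.82), Actn3 and Actn2 (0.59) and Myoz1 and Myoz2 (1.51). It was negative for Tnnt3 and Tnnt1 (-1.41), Tnnc2 and Tnnc1 (-0.98), Casq1 and Casq2 (-1.42) and Atp2a1 and Atp2a2 (-3.24). In calvaria, Tnni1, Tnnc1 and Casq2 lay below the array median on both arrays and Tnnt1 on 1, so the gaps of their pairs are inexact.

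Probe sets of 1 gene mostly went the same way but by unequal amounts. Of 65 tested probe sets of the 41 genes, 61 were called lower in calvaria than in ulna and 0 higher. Against ulna, 11 were lower and 1 higher in mandible, and against calvaria 56 were higher and 0 lower in mandible. Several probe sets read the same gene again, so these counts add no genes to those called above. Shares over all probe sets are not given here. Of all genes tested, 4.54% were lower and 8.36% higher in calvaria than in ulna. For mandible, 10.9% were lower and 11.0% higher than in ulna, and 5.14% were higher and 4.01% lower than in calvaria. Among 13 genes with several tested probe sets, the values for calvaria against ulna ran from -4.84 to -2.34 for Myom2, from -4.28 to -1.30 for Ldb3 and from -4.21 to -2.19 for Trdn. The range was -3.19 to -1.27 for Tpm2, whose representative probe set gave the smallest difference. The 2 probe sets of Ryr1 gave -3.78 and -3.76.

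**Figure D4:**
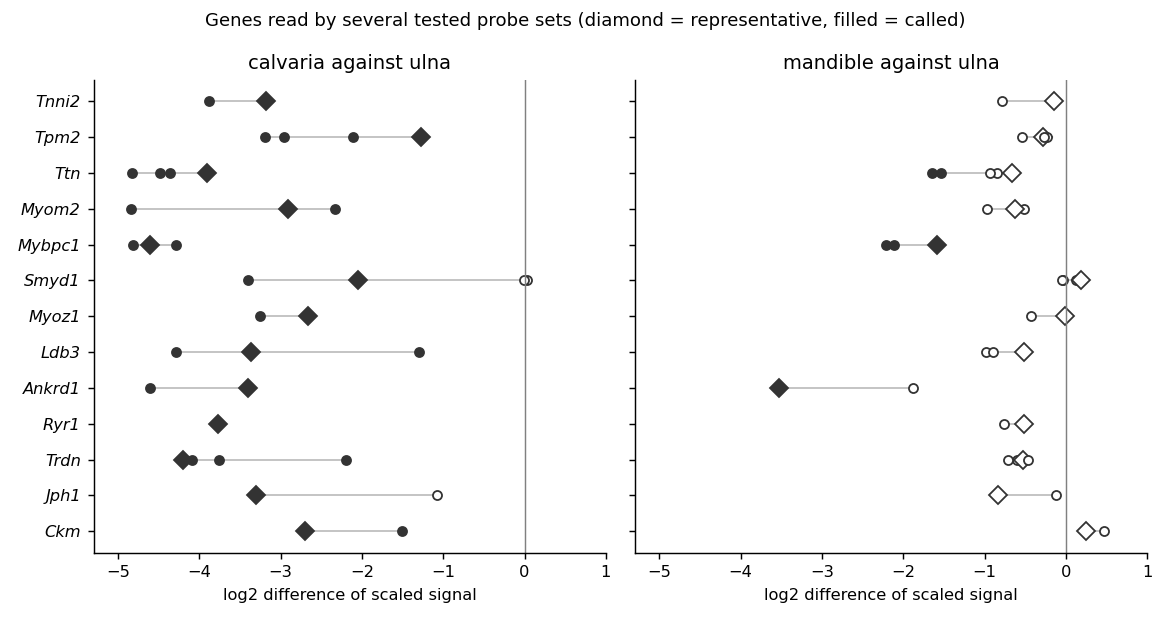
Log2 difference of every tested probe set for the 13 genes with more than 1, calvaria against ulna on the left and mandible against ulna on the right, with a diamond for the probe set that stands for the gene and filled symbols for called probe sets. Spread within a gene is widest for Smyd1 on the left (-3.41 to 0.03) and for Ankrd1 on the right (-3.53 to -1.88).

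Most other genes of the same machinery, from 4 further lists, were also lower in calvaria. Of 18 other thin filament and Z-disc genes tested, 16 were called lower in calvaria than in ulna and 0 higher (median -3.24). Between mandible and ulna, 10 were lower and 1, Nebl, higher (median -1.15). Those with the highest mean among the 10 were the chaperone Cryab (-1.20), the LIM protein Fhl1 (-1.37), Nrap (-1.64) and Pdlim3 (-1.26).

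Of 12 other thick filament and M-band genes tested, 10 were lower and 1, Obsl1, higher in calvaria than in ulna. For mandible, 2 were lower than in ulna and Obsl1 was higher (1.04, limma adjusted p = 0.0428). The 2 were myosin genes. Myh2, the myosin heavy chain of fast oxidative fibres, had signals of 68.4 and 77.7 in calvaria, 1815 and 1895 in mandible and 5600.4 and 5539 in ulna, and the sites did not overlap. Its log2 difference of mandible against ulna was -1.70 (limma adjusted p = 9.83e-08). Myl2, the regulatory light chain of slow fibres and heart, had signals of 15.4 and 16.1 in calvaria, 81.7 and 70.2 in mandible and 685 and 772 in ulna and was 10.4-fold lower in mandible than in ulna (limma adjusted p = 1.8e-07). The slow myosin heavy chain Myh7 had signals of 27.4 and 37.1 in calvaria, 29.0 and 35.6 in mandible and 35.9 and 62.0 in ulna, near the array median, and was not called between mandible and ulna (-0.67, limma adjusted p = 0.198). Of the fast myosin genes, Myh1 differed by -0.16, Myh4 by -0.64, Myl1 by -0.16 and Mylpf by 0.03 between mandible and ulna, and these 4 were not called. In calvaria against ulna the same 4 were called, with -2.86, -1.70, -2.66 and -2.69.

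Of 16 other calcium genes tested, 11 were lower in calvaria than in ulna (median -1.93), among them sarcalumenin (Srl, -3.26) and the histidine-rich calcium binding protein Hrc (-2.28). As in the 9 calcium genes above, 0 were called between mandible and ulna by limma at both limits, with 6 of the 16 past the adjusted p alone. Over all genes tested, 5928 of 12326 passed it there. Of 18 other energy genes tested, 16 were lower in calvaria than in ulna (median -2.18). The glycolytic enzymes Aldoa (-2.02), Pfkm (-3.04) and Pgk1 (-1.11) were among them. The 2 called lower in mandible than in ulna were the glycogen synthase Gys1 (-1.23) and the AMP deaminase of muscle, Ampd1 (-1.76).

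Markers of other tissues were read beside the muscle genes. Of 5 smooth muscle markers tested, 0 were called by limma in any comparison, while 2 passed the adjusted p alone in calvaria against ulna, 2 in mandible against ulna and 1 in mandible against calvaria. Over all 12326 genes tested, 4228, 5928 and 3296 passed it in the same comparisons. The sum of all 7 markers was between 2008 and 2027 in calvaria, 1847 and 1868 in mandible and 1278 and 1412 in ulna. Most of it was Acta2, with means of 1477 in calvaria, 1230 in mandible and 867 in ulna. The tested markers did not all go 1 way: 3 lay above 0 and 2 below in calvaria against ulna. Of 4 tendon markers tested, 3 were higher and 1 lower in calvaria than in ulna, and all 4 were higher in mandible than in ulna. Among the 3 higher in calvaria were Tnmd (13.4-fold) and Fmod (3.37-fold). The 1 lower in calvaria was Thbs4, a matrix protein of tendon, with signals of 17.9 and 30.0 in calvaria, 848 and 803 in mandible and 346 and 400.0 in ulna. Like most of the muscle genes, Thbs4 was lower in calvaria than in ulna (-4.08, limma adjusted p = 1.28e-07) and higher in mandible than in calvaria (34.6-fold, limma adjusted p = 4.21e-08). Unlike most of them, Thbs4 was also called higher in mandible than in ulna (2.05-fold, limma adjusted p = 0.00227). Its part in the muscle values was not tested. The 5 tooth markers summed to between 33.4 and 72.4 in calvaria, 55.1 and 79.5 in ulna and 41017 and 41514 in mandible, which had kept its teeth. Of 6 muscle stem and differentiation factors, Pax7, Myf5 and Myog lay below the filter. Of the 3 tested, Myf6, a factor kept in mature fibres, was lower in calvaria than in ulna (-3.16, limma adjusted p = 5.99e-06).

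**Figure D5:**
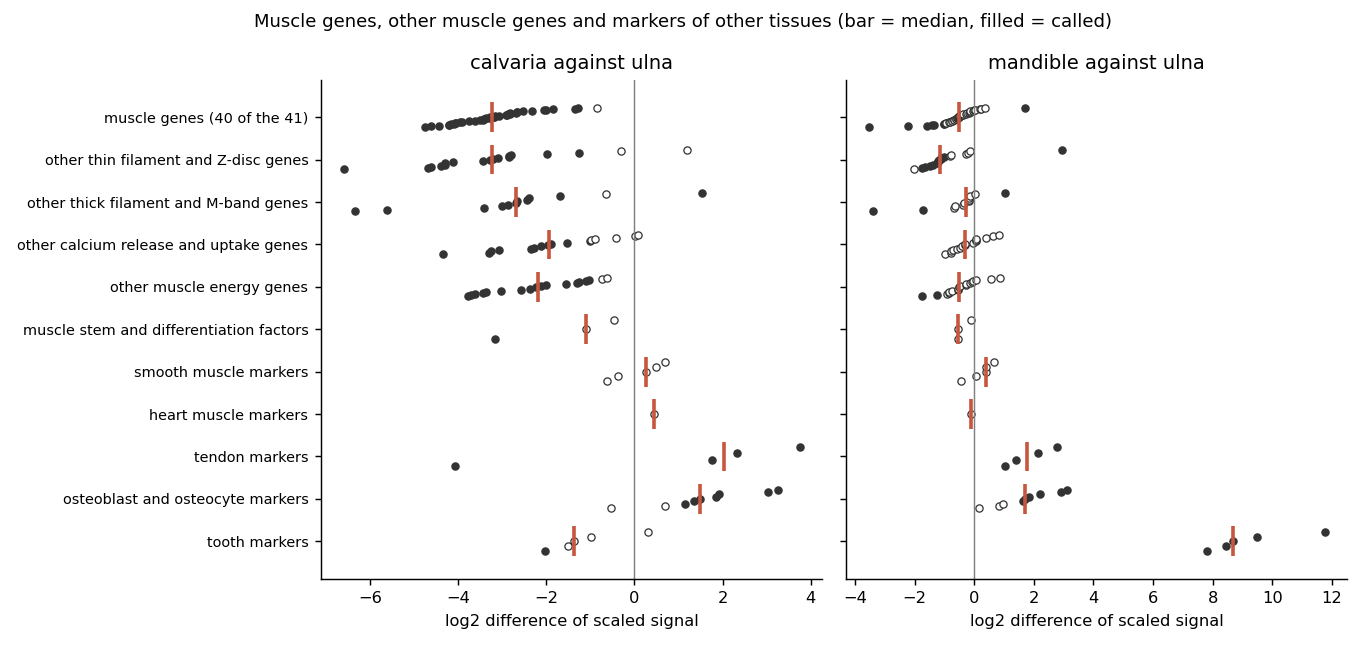
Log2 difference of each tested gene, calvaria against ulna on the left and mandible against ulna on the right, for 40 of the 41 muscle genes, 4 further lists of muscle genes and 6 lists of markers, with a bar at each list's median and filled points for called genes. The medians of the muscle lists lie left of 0 in the left panel, from -3.24 to -1.93, and closer to 0 in the right panel. Single genes of the further lists, such as Obsl1 (1.53), lie right of 0 in the left panel. The scales of the panels differ.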

How the data were processed

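The authors deposited MAS5 signal intensities of 6 Affymetrix mouse arrays (MAS5 per the submitters' processing notes, version and detection calls not given in the sources used here). RNA was labelled in 1 cycle. All 6 columns were matched to a site by their labels, and 0 columns belonged to other samples. Of 45101 probe sets, 64 controls were left out. Symbols came from the platform annotation, updated on GRCm38.p6, with 34945 probe sets given 1 symbol. Probe sets with none or several were tested but unnamed.

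Log2 of signal over the array median was fitted in limma 3.58.1 (R 4.3.3) over all 6 arrays, with a mean per site and variances moderated along the signal trend (residual degrees of freedom 3, prior 7.67). Benjamini-Hochberg adjustment ran over the 25233 tested probe sets of each of 3 comparisons. Arrays of a site correlated at 0.952 to 0.956, those of different sites at 0.797 to 0.862, and no arrays were identical. Having 2 arrays per site limits the precision.

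The 41 genes, the other lists and the tests were chosen with earlier results of these data known. Array values are given for the fast and slow genes, for the 2 highest means of each role and for the largest differences, and for others added after their values were seen (Mybpc2, Sln, Atp2a2 and the second Ankrd1 probe set). Named from each further list are up to 4 called genes of highest mean. Nebl, Thbs4, Myh7, the bone cell markers and the fast myosins in mandible were added after their values were seen. Xirp2, Trim55, Scn4a, Gapdh and Bglap had no probe set with 1 symbol here, some list genes are not reported here, and Myl3, Mybph, Clcn1, Cnn1, Lmod1 and Scx lay below the filter. Fit and motif search were tested on simulated data. The alternatives were other scalings, filters, an offset, variance models, a replicate block, single arrays left out, the call rule and the choice of probe set. Proteins were not compared. Figures came from Python 3.11.15 with matplotlib 3.10.9.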

Additional observations from a re-analysis of the deposited data

How the results depend on the processing

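Among the 40 tested genes, 39 were called in calvaria against ulna and 36 in mandible against calvaria: 37 to 39 and 35 to 37 when single arrays were left out, 36 and 34 with an offset, 34 and 31 without moderation of the variances, and 31 and 31 of the 33 genes with a probe set above the median on all 6 arrays. In mandible against ulna 8 were called, 7 to 8 with single arrays left out, 5 without moderation of the variances and 28 by the adjusted p alone. By that last rule, 5928 of all 12326 genes tested passed. The median for calvaria against ulna, -3.23, became -3.15 as deposited, -3.14 by quantiles, -3.34 with a filter at the 75th percentile, -2.81 with an offset and -3.30 with unsuffixed probe sets, and -3.24 to -3.16 with single arrays left out. For mandible against ulna, -0.52 became -0.40, -0.41 and -0.41 as deposited, by quantiles and by the 75th percentile (-0.56 to -0.50 with single arrays left out). For mandible against calvaria, 2.76 became 2.46 with an offset (2.71 to 2.81).

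Fast minus slow moved with the filter, the offset and the genes taken. For calvaria against ulna, -0.44 became -0.032 with a filter at the 75th percentile, -1.61 with an offset, -0.29 with unsuffixed probe sets and -0.78 without Tnni1 (-0.55 to -0.34 with single arrays left out). For mandible against ulna, 1.03 became 0.38 with an offset and 0.64 without Tnni1 (0.90 to 1.16). For mandible against calvaria, 1.48 became 1.09, 1.99 and 1.19 with that filter, the offset and unsuffixed probe sets (1.34 to 1.61). The filter left only Tnnt1 and Myoz2 of the slow genes. Unsuffixed probe sets left only Tnnc1 and Myoz2 of the slow genes and took Tnnt3 out of the fast genes. These values, like those without Tnni1, therefore compare fewer genes. The cause of the shifts with an offset was not tested. The alternatives without Tnni1 and with a filter on all 6 arrays were chosen after seeing the data.

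The sign turned for 1 called result, Smyd1 in mandible against calvaria (2.24, and -0.039 by the probe set above the median on all 6 arrays). The others were not called. In mandible against ulna this held for Acta1 (0.066 as deposited, 0.053 by the 75th percentile) and Myoz1 (0.11 as deposited, 0.13 by quantiles, 0.095 by the 75th percentile, 0.0096 without mandible replicate 1, 0.0091 without ulna replicate 2, and at lowest -0.029 with single arrays left out). It also held for Casq2 (0.053 without mandible replicate 1, -0.35 without mandible replicate 2), Sln (0.050 without mandible replicate 2, -0.99 without mandible replicate 1), Mb (-0.018 without ulna replicate 1, 0.077 without ulna replicate 2) and Smyd1 (-0.050 above the median on all 6 arrays). In mandible against calvaria it held for Ankrd1 (0.026 with an offset, 0.12 without calvaria replicate 2, 0.85 without mandible replicate 1, -1.09 without mandible replicate 2 and 1.30 as the mean of its probe sets).

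Same-numbered arrays did not deviate together (r = -0.0048, 0.0058 and -0.012 over 25233 probe sets), so the numbers were not taken to pair them. With a replicate block, 39, 8 and 36 genes were called in the 3 comparisons, as without it. Without moderation of the variances, Tnnt1, Tnnc1, Ankrd1, Cacna1s and Sln lost their calls in calvaria against ulna, Tnnt1, Myom1 and Ankrd1 in mandible against ulna, and Myom1, Des, Cacna1s, Casq2 and Sln in mandible against calvaria. With an offset, Casq2 and Sln fell under 2-fold in both comparisons with calvaria, Tnnc1 in calvaria against ulna, and Myom1 and Tcap in mandible against ulna. Signal near or below the array median limits Tnni1, Tnnt1, Tnnc1, Jph1, Sln, Casq2, Cacna1s, Smyd1 and Ankrd1.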
